A study of Mus musculus with 14 samples.

Results

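The Hoxb cluster on mouse chromosome 11 was examined for histone H3 lysine 27 trimethylation (H3K27me3) in embryonic stem cells that had lost another stretch of Polycomb-marked DNA. The members were the 10 protein-coding genes Hoxb1 to Hoxb9 and Hoxb13, and every deposited peak within 5 kb of the RefSeq gene body of a member was taken, which gave 45 of the 74458 peaks in the table and at least 3 peaks for each of the 10 genes. Neighbouring windows overlap, and 27 of the 45 peaks lay within reach of more than 1 member, so the genes are not independent measurements. H3K27me3 was measured by Cut&Tag, in which an antibody guides a transposase to the marked nucleosomes, and each value here is a count over a peak of a shared list. The cells were G4 mouse embryonic stem cells (mESCs) of a 129/Sv × C57BL/6 F1 hybrid background, grown with LIF on CD1 feeder cells, and all of them had been edited with CRISPR-Cas9. Of the 7 H3K27me3 libraries, 3 came from mESCs homozygous for a deletion of the Hoxa cluster (Hoxa2 to Hoxa13), 2 from mESCs lacking the Wnt6 anchor and 2 from mESCs lacking the Hmx1 anchor. No unedited library was among them, so each deletion was set against the other deletions, and the 7 IgG libraries were not analysed here. Edited clones were isolated and screened for each deletion, but nothing in the labels ties a library to a clone or culture, so p-values measure the spread between these libraries, which may be technical. A legend of the study refers to each deletion as a clone, with the same number of replicates throughout. The table does not match that number, since it holds 1 library fewer for Wnt6 and for Hmx1 than for Hoxa. If each deletion is 1 clone, deletion and clone cannot be told apart. The question for the Hoxb cluster was whether a paralogous cluster on another chromosome changed its H3K27me3 once the Hoxa cluster was gone.

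Hox genes encode homeodomain transcription factors that give cells of the embryo their position along the head-to-tail axis, and mammals carry them in the paralogous clusters Hoxa, Hoxb, Hoxc and Hoxd. Within a cluster the genes are ordered as they are used, with Hoxb1 active earliest and farthest forward and Hoxb13 latest and at the tail. In mESCs the clusters are silent and are classic targets of Polycomb repressive complex 2, whose subunit EZH2 writes H3K27me3 and whose subunit EED binds the mark already present. The clusters also hold miRNA genes of the miR-10 and miR-196 families, which repress Hox mRNAs among other targets.

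The sequences that bear on the comparison are the miRNAs with copies in several clusters, since the Hoxa deletion takes away 1 of them, and the promoters of members for which a sequence was at hand. The mature miRNA sequences are from RefSeq (GRCm38.p6) and are printed 5′ to 3′ with the seed, bases 2 to 8, in capitals.
miR-10a-5p, from Mir10a in the Hoxb cluster (chr11:96317186-96317208, plus strand): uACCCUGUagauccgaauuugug
miR-10b-5p, from Mir10b in the Hoxd cluster (chr2:74726074-74726096, plus strand): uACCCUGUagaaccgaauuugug
miR-196a-5p, from Mir196a-1 in the Hoxb cluster (chr11:96265187-96265208, plus strand): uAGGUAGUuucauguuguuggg
miR-196b-5p, from Mir196b in the Hoxa cluster (chr6:52230129-52230150, minus strand): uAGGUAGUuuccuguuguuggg
The pair of miR-10 sequences shares its seed and differs by U12A (miR-10a-5p base first, counted from 1 at the 5′ end). The miR-196 sequences share theirs and differ by A12C, with the miR-196a-5p base first. Mir196a-2 in the Hoxc cluster gives the same mature miR-196a-5p as Mir196a-1, so the cells of the Hoxa deletion lacked the Mir196b copy and kept both genes for miR-196a-5p.

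Promoter sequences were at hand for 3 of the 10 members, Hoxb1, Hoxb4 and Hoxb8, as 300 bases running from 250 before to 50 after a start site (RefSeq, GRCm38.p6). Those of Hoxb1 and Hoxb4 are shown because each lay wholly inside a member peak, 5′ to 3′ on the plus strand with every CG dinucleotide in capitals, the sequence class that unmethylated CpG islands and Polycomb targets are rich in.
Hoxb1, chr11:96365508-96365807: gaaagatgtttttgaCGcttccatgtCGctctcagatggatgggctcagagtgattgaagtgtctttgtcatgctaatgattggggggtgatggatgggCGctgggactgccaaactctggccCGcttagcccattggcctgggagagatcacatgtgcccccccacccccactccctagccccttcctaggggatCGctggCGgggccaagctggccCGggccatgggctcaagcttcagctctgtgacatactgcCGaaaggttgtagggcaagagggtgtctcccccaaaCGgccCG
Hoxb4, chr11:96318017-96318316: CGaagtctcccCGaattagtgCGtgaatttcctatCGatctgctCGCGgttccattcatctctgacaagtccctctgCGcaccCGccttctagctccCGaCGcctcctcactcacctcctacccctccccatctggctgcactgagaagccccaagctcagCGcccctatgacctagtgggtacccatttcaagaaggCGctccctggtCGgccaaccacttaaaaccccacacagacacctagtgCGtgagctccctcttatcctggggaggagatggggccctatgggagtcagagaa
The Hoxb1 window held 10 CG dinucleotides and that of Hoxb4 held 14, where 43.5% and 36.3% of the 32851 promoter windows in the table held at least as many. The Hoxb8 window (chr11:96281655-96281954) lay inside the gene body used here, which begins at 96279401. It held 13 CG dinucleotides, a number met or passed by 37.9% of windows, and no peak of the list overlapped it. These counts describe the windows alone. The peak over the Hoxb1 start (chr11:96365315-96367369) carried 49.0 CPM per kb of peak (CPM being the count scaled by the TMM-adjusted library total) on average and that over the Hoxb4 start (chr11:96317902-96319320) 45.7.

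Totals over the table ran from 6016500 to 36563541 counts per library, and the Hmx1 deletion held the shallowest library. No pair of libraries held identical values. The labels fitted the data: peaks over the deleted gene bodies kept 0.101% to 0.161% of the level of the other libraries in the Hoxa deletion, 3.15% to 3.18% in the Wnt6 deletion and 0.227% to 0.403% in the Hmx1 deletion. Of 12 genes active in mESCs, 4 (Tdgf1, Dppa5a, Lin28a and Sall4) had no peak within 5 kb. The peaks of the other 8 held 12.97 to 15.6 CPM per kb as a group, and Esrrb had 21 of these 36 peaks. This was below the Hoxb peaks (46.3 or more in each library) but above the median of 7.74 over all peaks. The group level was 15.15 to 15.6 in the Hoxa deletion and 12.97 to 13.9 in the other libraries. In the Hoxa deletion 2 of the 8, Klf4 (0.66) and Tfcp2l1 (0.84, log2 fold change), passed the test, where 16.2% of all genes did. Feeder fibroblast genes had peaks at 7 of 10 and a level of 38.2 to 43.4 CPM per kb. Of the 7, 0 passed the test in any comparison. The shares of all genes that passed were 16.2% in the Hoxa deletion, 0.0536% in the Wnt6 deletion and 0.0536% in the Hmx1 deletion.

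The Hoxb cluster was among the most heavily marked places in the table. The 45 member peaks averaged 49.1 CPM per kb over their summed width, ranging from 25.2 to 81.8, against a median of 7.74 over all peaks. Levels of genes are per kb of peak throughout, so that genes with many or wide peaks can be set beside genes with few. Peaks filled 29.6% of the stretch from Hoxb9 to Hoxb1. Between the windows of Hoxb13 and Hoxb9 lies a long stretch without a Hox gene, in which 13 further peaks were sparser (14.4% of the stretch) and weaker (29.6 CPM per kb, from 6.88 to 65.3). At the edges of the 5 kb windows, the last peaks inside (chr11:96199943-96200674 by Hoxb13 and chr11:96269907-96270250 by Hoxb9) held 30.6 and 36.0 CPM per kb on average and the first outside (chr11:96202618-96204230 and chr11:96265885-96266268) 36.3 and 29.9. The profile along the cluster had the same peaks and valleys in all 7 libraries: over the 45 peaks, log2 CPM correlated at 0.980 to 0.988 within deletions (5 pairs) and at 0.974 to 0.995 between them (16 pairs), values that describe libraries sharing 1 peak list and the same range of levels.

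**Figure D1:**
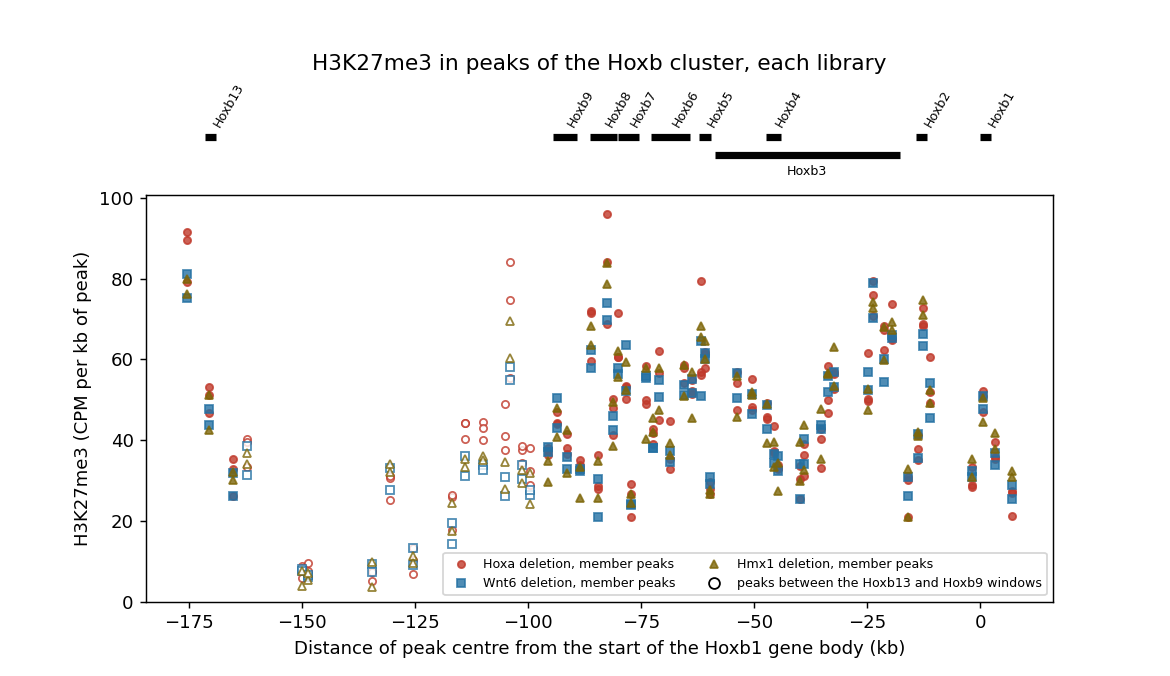
H3K27me3 (CPM per kb of peak) in each library against the distance of the peak centre from the start of the Hoxb1 gene body in kb, with gene bodies drawn above. Filled symbols are the 45 member peaks and open symbols the 13 peaks between the Hoxb13 and Hoxb9 windows, coloured by deletion (3 Hoxa, 2 Wnt6 and 2 Hmx1 libraries). The member peaks of all deletions overlie each other between 25.2 and 81.8 CPM per kb on average, while several open symbols near −110 kb are highest in the Hoxa deletion.

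The summed level of the member peaks did not separate the deletions. It was 1786, 1701 and 1677 CPM in the Hoxa deletion, 1709 and 1617 in the Wnt6 deletion and 1601 and 1790 in the Hmx1 deletion. The lowest and the highest library were both of the Hmx1 deletion, and the 3 groups overlapped. Means were 1721 ± 57.4 (SD, n = 3), 1663 ± 64.9 (SD, n = 2) and 1695 ± 133 CPM (SD, n = 2), so the differences between deletions lay within the spread of 1 deletion. The member peaks took 0.157% to 0.176% of all counts of a library. In density the cluster stood at 49.8 ± 1.66 CPM per kb in the Hoxa deletion, 48.1 ± 1.88 in the Wnt6 deletion and 49.05 ± 3.85 in the Hmx1 deletion (SD, n = 3, 2 and 2).

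Hoxc stood at 47.6 ± 1.92, 46.0 ± 2.57 and 48.5 ± 2.49 CPM per kb in the Hoxa, Wnt6 and Hmx1 deletions, and Hoxd at 56.1 ± 1.74, 54.2 ± 2.71 and 57.6 ± 3.21 (SD, n = 3, 2 and 2). In each of the 7 libraries Hoxd was denser than Hoxb.

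Among the members, Hoxb2 carried the densest mark and Hoxb1, Hoxb4 and Hoxb9 the sparsest, a range from 41.9 to 58.5 CPM per kb averaged over libraries. Values of the genes are given below in CPM per kb of peak, library by library. Each of the 10 lay above 90.3% to 96.2% of protein-coding genes with a peak. Hoxb2, which acts in the hindbrain downstream of Hoxb1, measured 62.4, 58.0 and 57.2 in the Hoxa deletion, 58.0 and 54.6 in the Wnt6 deletion and 59.8 and 59.9 in the Hmx1 deletion. It was above Hoxb5, the next gene in order, in 7 of 7 libraries, although the ranges of the 2 genes over libraries overlapped.

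Hoxb5, known from the neural crest of the gut, stood at 54.1, 51.2 and 56.7 in the Hoxa deletion, 51.4 and 51.4 in the Wnt6 deletion and 50.3 and 56.0 in the Hmx1 deletion. Hoxb3, a hindbrain gene with the longest gene body of the members and 21 peaks, stood at 54.2, 51.3 and 50.8 in the Hoxa deletion, 52.5 and 50.2 in the Wnt6 deletion and 50.2 and 55.1 in the Hmx1 deletion. These 2 genes did not differ beyond their spread, with Hoxb5 higher in 4 of 7 libraries. Hoxb13, the tail-end member, lies apart from the rest of the cluster and is best known from the prostate. It had only 3 peaks, none shared with another member, at 55.7, 52.2 and 49.4 in the Hoxa deletion, 49.8 and 45.3 in the Wnt6 deletion and 45.3 and 52.1 in the Hmx1 deletion. All 3 libraries of the Hoxa deletion exceeded the Wnt6 libraries except for the third, which lay just below the higher of them, and the higher Hmx1 library overlapped them. Hoxb3 was above Hoxb13 in 5 of 7 libraries, and Hoxb13 above Hoxb6, the next in order, in 6 of 7.

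Hoxb6, a gene of the trunk, was at 49.97, 47.9 and 48.4 in the Hoxa deletion, 47.1 and 46.4 in the Wnt6 deletion and 45.0 and 51.0 in the Hmx1 deletion. Hoxb7, which shares all 9 of its peaks with other members, was at 50.5, 47.9 and 47.4 in the Hoxa deletion, 47.7 and 45.8 in the Wnt6 deletion and 45.2 and 50.7 in the Hmx1 deletion. The levels of Hoxb6 and Hoxb7 could not be ordered, since Hoxb6 was higher in 4 of 7 libraries. Hoxb8, which acts in blood progenitors and microglia as well as along the trunk, was at 47.8, 45.2 and 47.2 in the Hoxa deletion, 44.0 and 43.7 in the Wnt6 deletion and 43.6 and 47.5 in the Hmx1 deletion. It was below Hoxb7 and above Hoxb9 in 7 of 7 libraries, with overlapping ranges.

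Hoxb9, which helps to pattern the ribs, measured 44.2, 43.0 and 43.1 in the Hoxa deletion, 43.2 and 41.2 in the Wnt6 deletion and 38.5 and 44.8 in the Hmx1 deletion. Hoxb4, known for promoting the expansion of blood stem cells, measured 43.9, 41.9 and 41.3 in the Hoxa deletion, 43.7 and 39.9 in the Wnt6 deletion and 39.3 and 44.8 in the Hmx1 deletion. Hoxb1, which sets the identity of a single segment of the hindbrain, measured 43.4, 42.3 and 40.05 in the Hoxa deletion, 42.5 and 41.2 in the Wnt6 deletion and 39.6 and 44.5 in the Hmx1 deletion. These 3 genes closed the order and did not differ beyond their spread (Hoxb9 above Hoxb4 in 5 of 7 libraries and Hoxb4 above Hoxb1 in 4 of 7). For each of the 10 genes the lowest value of the 7 libraries belonged either to the shallowest library (Hmx1 replicate 1) or to the deepest (Wnt6 replicate 2), and the Hoxa libraries overlapped the Hmx1 libraries. In such bulk material, fewer cells carrying the mark and less of it per cell cannot be told apart.

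**Figure D2:**
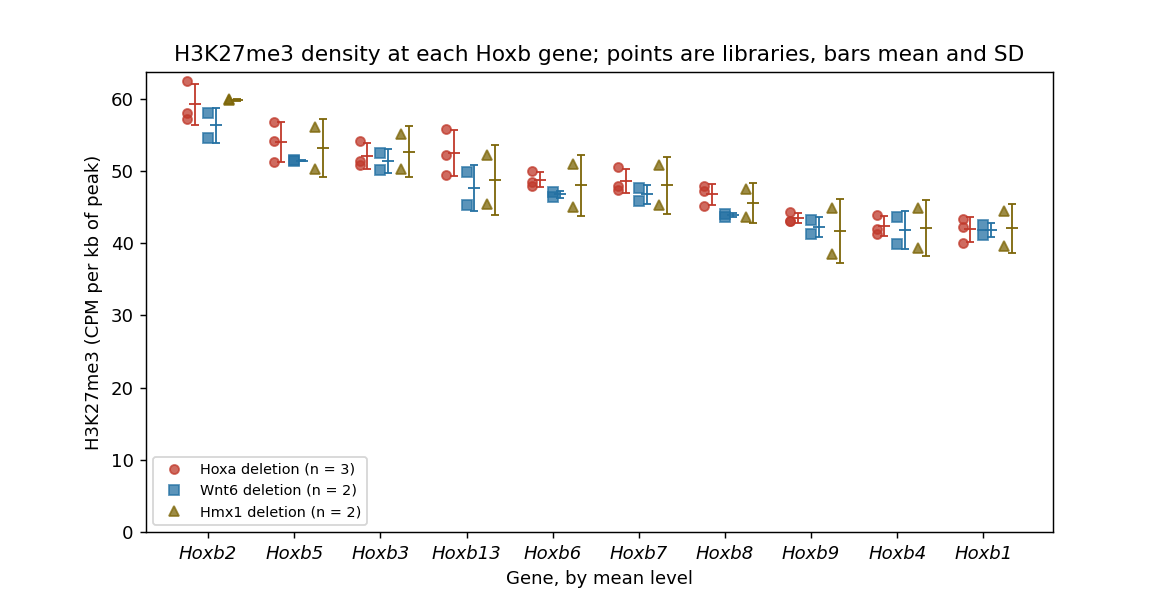
H3K27me3 density (CPM per kb of peak) at each of the 10 Hoxb genes, ordered by mean level. Points are libraries (3 Hoxa, 2 Wnt6 and 2 Hmx1 deletion) and the bars beside them mean and SD; within every gene the Hoxa libraries overlap the Hmx1 libraries, and the step from Hoxb2 (58.5) to Hoxb1 (41.9) is larger than any step between deletions.

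Loss of the Hoxa cluster left no change at the Hoxb genes that passed the test. In the Hoxa deletion, 0 of the 45 member peaks passed an adjusted p under 0.05 together with a change of more than 1 log2 unit in either direction, against 1.55% of the 74441 peaks tested (edgeR quasi-likelihood, Benjamini-Hochberg over all peaks). With the adjusted p alone the count was again 0 of 45, where 8.52% of all peaks passed. No member peak reached an unadjusted p under 0.05 in edgeR, where 20.8% of all peaks did, and DESeq2 also gave 0 at the adjusted and at the unadjusted threshold. At the level of genes, 0 of 10 passed against 16.2% of the 27982 genes tested, by DESeq2 as well, with 0 at an unadjusted p under 0.05 in both tools (27.3% of all genes in edgeR). All 45 peaks and all 10 genes passed the filter on low counts.

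These comparisons were precise enough to bound the change relative to the other peaks of the same libraries. Counts were scaled within this peak list, so a shift shared by all peaks of a deletion would not show. The median log2 fold change of the 45 peaks was 0.025, with single peaks from −0.21 to 0.16, beside −0.0054 over all peaks and 0.033 over the 5368 tested peaks of chromosome 11. Every 95% interval of a member peak lay within 2-fold, from 0.716 to 1.303 at the outside, and those of the genes lay between 0.904 and 1.20-fold. Hoxb13 had the largest difference, 0.12 (SE 0.071, edgeR adjusted p = 0.283), with a 95% interval of 0.984 to 1.20-fold. Next came Hoxb8 at 0.063 (SE 0.066, edgeR adjusted p = 0.599) and Hoxb9 at 0.049 (SE 0.068, edgeR adjusted p = 0.715). Hoxb1 was the only gene with a negative difference, −0.0037 (SE 0.070, edgeR adjusted p = 0.984). For Hoxb3, the member with the most counts, the interval ran from 0.929 to 1.08-fold. Shifts inside these intervals are not excluded with 3 against 4 libraries.

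**Figure D3:**
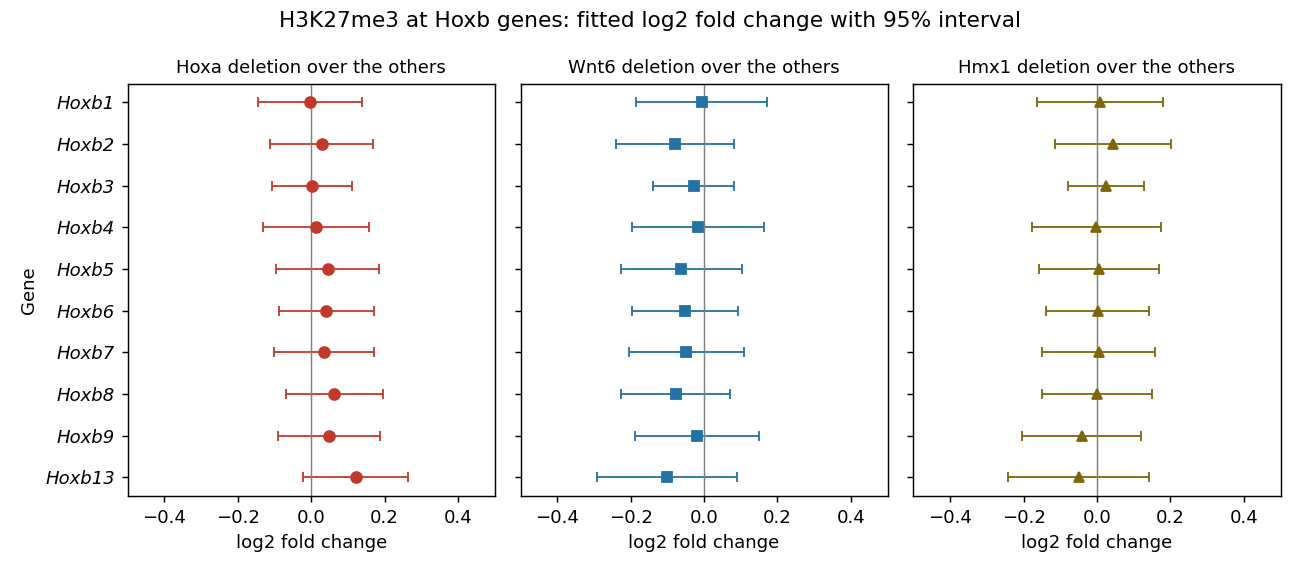
Fitted log2 fold change of H3K27me3 at each Hoxb gene for the Hoxa, Wnt6 and Hmx1 deletion over the other deletions pooled, with 95% intervals (7 libraries). Every interval includes 0, and the widest departure is that of Hoxb13 in the Hoxa deletion at 0.12.

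The strongest peak of each member gave the same picture in single windows. The peak over Hoxb13 (chr11:96193599-96196456), which overlaps the gene body and is the widest of the 45, held, in CPM, 152, 146 and 133 in the Hoxa deletion, 136 and 125 in the Wnt6 deletion and 122 and 146 in the Hmx1 deletion. The Hoxa deletion differed there by 0.12 (SE 0.080, edgeR adjusted p = 0.424), and its groups overlapped. The strongest peak of Hoxb9 (chr11:96270883-96273246) held, in CPM, 104, 111 and 105 in the Hoxa deletion, 119 and 102 in the Wnt6 deletion and 96.5 and 114 in the Hmx1 deletion, with a difference of −0.016 (SE 0.084, edgeR adjusted p = 0.947). That over Hoxb6 (chr11:96299129-96301245), also the strongest within reach of Hoxb5, held, in CPM, 123, 114 and 124 in the Hoxa deletion, 114 and 108 in the Wnt6 deletion and 108 and 124 in the Hmx1 deletion. Here the difference was 0.083 (SE 0.081, edgeR adjusted p = 0.625), and the highest library belonged to the Hmx1 deletion.

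In the middle and at the front of the cluster the differences were of either sign. The peak in Hoxb7 (chr11:96286862-96287738), the strongest for Hoxb7 and Hoxb8 alike, differed by −0.12 (SE 0.10, edgeR adjusted p = 0.534), lower in the Hoxa deletion. The peak at the Hoxb4 start shown above held, in CPM, 69.7, 64.0 and 64.9 in the Hoxa deletion, 69.0 and 60.6 in the Wnt6 deletion and 55.8 and 69.5 in the Hmx1 deletion and differed by 0.048 (SE 0.094, edgeR adjusted p = 0.834). The leading peaks of Hoxb3 (chr11:96332680-96334168) and Hoxb2 (chr11:96345685-96346749, overlapping Hoxb3 and Hoxb3os) differed by −0.038 and 0.018 (adjusted p = 0.862 and 0.941, edgeR). At the Hoxb1 start the peak held, in CPM, 107, 104 and 96.5 in the Hoxa deletion, 105 and 98.0 in the Wnt6 deletion and 91.3 and 103 in the Hmx1 deletion, a difference of 0.046 (SE 0.083, edgeR adjusted p = 0.819).

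Of the 45 peaks, that with the smallest p in the Hoxa deletion lay beyond Hoxb1 (chr11:96372505-96373002, outside any gene body) and was weak. It held, in CPM, 10.6, 13.3 and 13.6 in the Hoxa deletion, 12.7 and 14.4 in the Wnt6 deletion and 15.4 and 16.1 in the Hmx1 deletion. Both Hmx1 libraries lay above all others, and the Hoxa and Wnt6 libraries overlapped. Its log2 fold change was −0.21 (SE 0.13, edgeR adjusted p = 0.392) in the Hoxa deletion and 0.28 (SE 0.16, edgeR adjusted p = 0.624) in the Hmx1 deletion, where it also had the smallest p of the 45.

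The Wnt6 and Hmx1 deletions, which leave every Hox cluster whole, gave no call at the Hoxb genes either. In the Wnt6 deletion 0 of 45 peaks passed, with or without the fold change minimum, against 0.0497% and 0.0564% of all peaks, and 0 of 10 genes against 0.0536%. The median log2 fold change of the 45 peaks was −0.048, from −0.23 to 0.12, beside −0.0025 over all peaks. All 10 genes had a negative difference, from −0.10 at Hoxb13 to −0.0059 at Hoxb1, within 0.818 to 1.13-fold by their intervals. Their median was −0.050, beside −0.033 over all genes. The peak with the smallest p lay in Hoxb3 (chr11:96344093-96344857) at −0.18 (SE 0.11, edgeR adjusted p = 0.920), where the libraries measured, in CPM, 52.2, 47.6 and 51.4 in the Hoxa deletion, 41.6 and 46.0 in the Wnt6 deletion and 45.6 and 52.0 in the Hmx1 deletion. In the Hmx1 deletion 0 of 45 peaks passed, against 0.0282% with and 0.0309% without the fold change minimum, and 0 of 10 genes against 0.0536%. The median was 0.028 and the genes ranged from −0.049 at Hoxb13 to 0.044 at Hoxb2, within 0.846 to 1.15-fold. In these 2 deletions edgeR and DESeq2 gave 0 member peaks and 0 member genes at an unadjusted p under 0.05. In edgeR 5.203% of all peaks and 5.44% of all genes reached it in the Wnt6 deletion, and 8.96% and 12.7% in the Hmx1 deletion. The 3 comparisons share libraries, so their differences are tied to each other in sign.

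Set against each other in pairs, the deletions differed at none of the 45 peaks after adjustment. The share of all peaks that passed was 5.2% for Hoxa against Wnt6, 6.9% for Hoxa against Hmx1 and 0.132% for Wnt6 against Hmx1 (edgeR, adjusted p under 0.05). Only the weak peak beyond Hoxb1 passed before adjustment at 0.05 (edgeR), in Hoxa against Hmx1, where 19.02% of all peaks did, with a log2 fold change of −0.32 (SE 0.16, adjusted p = 0.250). At the level of genes, edgeR again gave Hoxb13 the largest difference, 0.14 against Wnt6 (adjusted p = 0.245) and 0.094 against Hmx1 (adjusted p = 0.454).

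Mostly outside the windows of the members, a stretch between Hoxb13 and Hoxb9 did differ in the Hoxa deletion. Of the 9 other annotated genes between Hoxb13 and Hoxb1, 3 rose and 0 fell, where 16.2% of all genes passed in either direction. They were the pseudogene Gm11539, the long noncoding RNA gene Gm53 and the miRNA gene Mir196a-1, which lie side by side. Gm53 shares peaks with each of the others, which share none between them, and the peaks of Mir196a-1 include 1 member peak of Hoxb9. Gm53 (chr11:96251660-96264484) measured, in CPM per kb, 42.5, 40.2 and 42.0 in the Hoxa deletion, 34.0 and 32.2 in the Wnt6 deletion and 33.8 and 35.2 in the Hmx1 deletion. All 3 Hoxa libraries lay above the other 4, and the log2 fold change was 0.30 (SE 0.068, edgeR adjusted p = 0.00153).

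Gm11539 measured, in CPM per kb, 38.4, 40.8 and 41.8 in the Hoxa deletion, 33.1 and 29.6 in the Wnt6 deletion and 32.2 and 33.0 in the Hmx1 deletion, a difference of 0.34 (SE 0.076, edgeR adjusted p = 0.00117). Mir196a-1 measured, in CPM per kb, 43.8, 39.5 and 41.3 in the Hoxa deletion, 35.2 and 34.5 in the Wnt6 deletion and 33.7 and 36.6 in the Hmx1 deletion, a difference of 0.24 (SE 0.068, edgeR adjusted p = 0.00983). For both of them, too, the Hoxa libraries lay above all others. The call of Mir196a-1 is the least firm of the 3: it was lost without Hoxa replicate 1 (log2 fold change 0.20), with the median of each chromosome removed (0.19), and with windows of 2 kb (0.22) or 10 kb (0.14), and those of Gm11539 and Gm53 were each lost under 1 of 22 alternatives, the window of 0 kb and of 10 kb respectively. The other 6 (Gm30134, Gm11538, Gm51876, Hoxb5os, Mir10a and Hoxb3os) ranged from 0.019 to 0.11 and did not pass.

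Peak by peak, 2 of the 13 peaks of this stretch passed the adjusted p in the Hoxa deletion, against 8.52% of all peaks, and 11 of 13 had a positive difference. The first (chr11:96250981-96252522, overlapping Gm53) held, in CPM, 62.1, 68.2 and 68.0 in the Hoxa deletion, 55.5 and 48.0 in the Wnt6 deletion and 51.4 and 54.4 in the Hmx1 deletion, differing by 0.34 (SE 0.093, edgeR adjusted p = 0.0123). The second (chr11:96260388-96260722, inside Gm53) held, in CPM, 16.3, 12.6 and 13.7 in the Hoxa deletion, 8.75 and 10.3 in the Wnt6 deletion and 9.30 and 11.6 in the Hmx1 deletion, a difference of 0.46 (SE 0.14, edgeR adjusted p = 0.0288). In both, each Hoxa library exceeded each of the others. Neither reached the 2-fold minimum. The median over the 13 was 0.22 in the Hoxa deletion, −0.13 in the Wnt6 deletion and −0.087 in the Hmx1 deletion, and 0 of 13 passed in the last 2. Whether the difference at Gm53 exceeds that at the member genes was not tested. As a group the embryonic stem cell genes also held more of the mark in the Hoxa libraries, as given above. Singly, 2 of 8 passed, where 16.2% of all genes did, and Zfp42 differed by −0.55 (edgeR adjusted p = 0.117). Their part in the result for this stretch was not tested. The next peaks toward Hoxb9, the first within reach of a member (chr11:96269907-96270250 and the Hoxb9 peak described above), differed by 0.072 and −0.016, neither past the test.

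**Figure D4:**
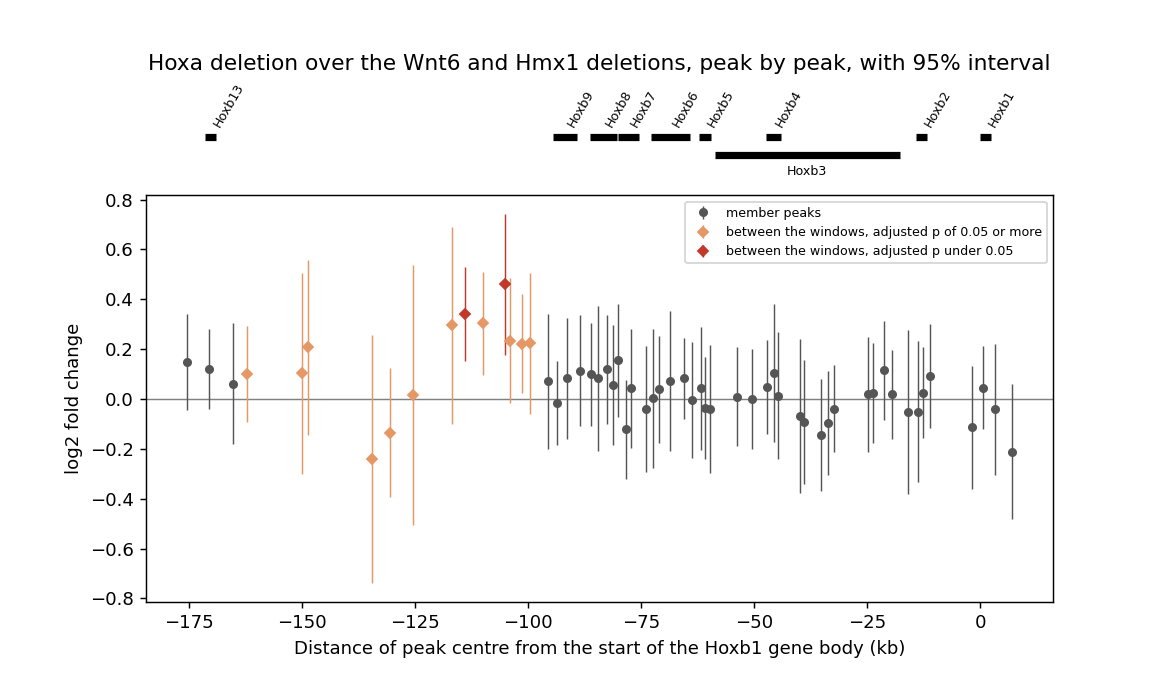
Log2 fold change of each peak of the cluster in the Hoxa deletion over the Wnt6 and Hmx1 deletions, with 95% intervals, against distance from the start of Hoxb1 in kb. Grey points are the 45 member peaks, all of whose intervals include 0, and diamonds the 13 peaks between the Hoxb13 and Hoxb9 windows, of which the 2 red ones pass the adjusted p.

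The miRNA genes of the clusters showed how the copies of 1 miRNA stood side by side; those outside the Hoxb cluster were chosen after the values were seen. At Mir196b, which lies in the deleted Hoxa stretch, the Hoxa libraries held 0.0460, 0.142 and 0.0630 CPM per kb and the other libraries 51.1 to 59.6, as the deletion itself sets. At Mir196a-2 in Hoxc the level was 49.5, 45.8 and 45.6 in the Hoxa deletion, 46.3 and 44.0 in the Wnt6 deletion and 45.2 and 50.8 in the Hmx1 deletion, with a difference of 0.0092 (SE 0.070, edgeR adjusted p = 0.956) in the Hoxa deletion. So of the 2 remaining genes for miR-196a-5p, the window of that in Hoxb passed the test with more H3K27me3 and that in Hoxc did not pass. The difference between them was not tested. Mir196a-1 lies inside the body of Gm51876, which did not pass (0.11, SE 0.069, edgeR adjusted p = 0.317). The peaks on either side of Mir196a-1 (chr11:96263709-96264973 and chr11:96265885-96266268) differed by 0.22 each and did not pass singly (edgeR adjusted p = 0.177 and 0.388). The peak of its window that did pass (chr11:96260388-96260722) lies inside Gm53. Mir10a, which lies in the Hoxb3 body next to Hoxb4 and whose 5 peaks are all member peaks, differed by 0.031 (SE 0.072, edgeR adjusted p = 0.845), and its relative Mir10b in Hoxd by −0.090 (SE 0.071, edgeR adjusted p = 0.459). The mark was measured on the DNA around these genes, and no miRNA was measured.

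**Figure D5:**
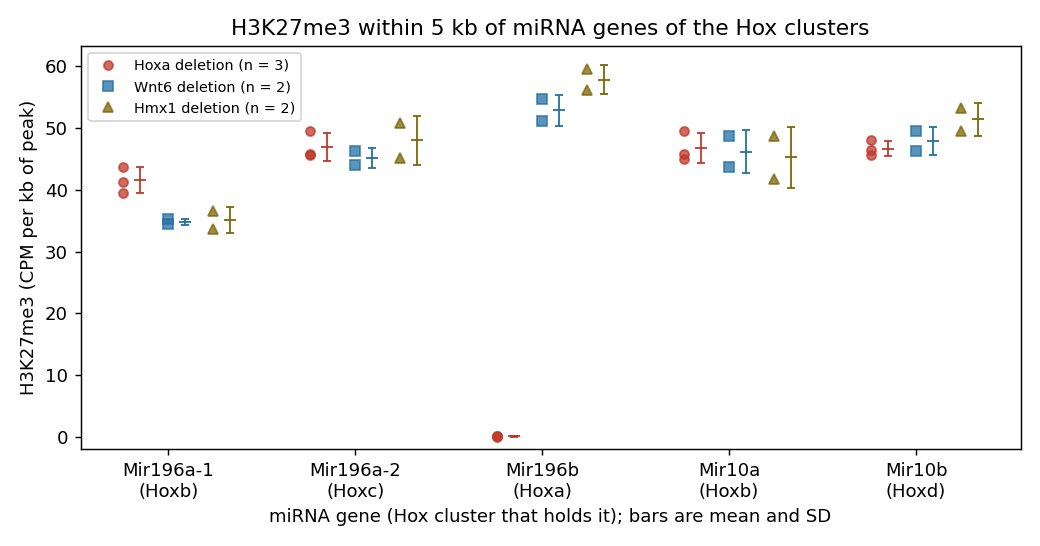
H3K27me3 (CPM per kb of peak, within 5 kb) at the miRNA genes of the Hox clusters in each library (3 Hoxa, 2 Wnt6 and 2 Hmx1), with mean and SD beside the points. Mir196b is near 0 in the Hoxa deletion, which removes it; at Mir196a-1 the 3 Hoxa libraries (39.5 to 43.8) sit above the other 4 (33.7 to 36.6), and at Mir10a and Mir196a-2 the deletions overlap.

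Around the cluster, 4 of the 28 other genes with a peak within 500 kb rose in the Hoxa deletion and 0 fell, again against 16.2% of all genes. They were the neighbours Gm38958 (0.38), Phospho1 (0.25), Abi3 (0.27) and Gngt2 (0.63, with adjusted p = 0.00126, 0.0107, 0.00603 and 0.00757 in edgeR), which share peaks. Of these, Phospho1 encodes a phosphatase of bone mineralization and Gngt2 a G protein subunit of cone photoreceptors. The 87 other peaks within 500 kb had a median log2 fold change of 0.018, close to that of the member peaks. They include the 13 peaks between the Hoxb13 and Hoxb9 windows, so this median does not describe the flanks alone.

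The Hoxc and Hoxd clusters gave the same count of 0. In the Hoxa deletion 0 of 9 Hoxc and 0 of 9 Hoxd genes passed, where 16.2% of all genes did. Their medians were 0.031 and 0.037, beside 0.038 for Hoxb and 0.046 over all genes. In the Wnt6 deletion the medians were −0.066, −0.073 and −0.050 for Hoxc, Hoxd and Hoxb, and in the Hmx1 deletion 0.033, 0.043 and 0.0032, with 0 genes past the test in each. Taken by paralogous group, Hoxb8, Hoxc8 and Hoxd8 differed in the Hoxa deletion by 0.063, 0.058 and 0.047. Hoxb4, Hoxc4 and Hoxd4 differed by 0.014, 0.031 and −0.090. At the tail end Hoxb13, Hoxc13 and Hoxd13 stood at 0.12, −0.013 and 0.013, and no gene of these groups passed.

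Partners and regulators of Hox genes were mixed. Cofactors of the TALE class bind DNA together with Hox proteins, and among them Pbx3 rose in the Hoxa deletion, by 0.22 (SE 0.077, edgeR adjusted p = 0.0465). Pbx4 differed by −0.65 (SE 0.10, edgeR adjusted p = 6.97e-06), lower in the Hoxa deletion. Meis1, the most densely marked of the listed cofactors at 39.9 CPM per kb, differed by −0.026 (SE 0.067, edgeR adjusted p = 0.858). Of the Cdx genes, which switch on trunk Hox genes, 0 of 3 passed, against 16.2% of all genes. Among them Cdx1 stood at 0.18 (SE 0.068, edgeR adjusted p = 0.0671). In the Wnt6 and Hmx1 deletions these cofactors and the 3 Cdx genes did not pass, where 0.0536% of all genes did in each.

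Genes more than 1 Mb from the cluster were ranked by how closely their level followed the summed Hoxb level. Among 5302 genes of similar level, the 5 with the highest Pearson r of log2 CPM were Gad1 (0.967), Gm40259 (0.967), Fli1 (0.966), Tlx1 (0.963) and Nkx2-5 (0.958), each over 7 libraries. The libraries share depth and scaling across all genes, so these values are a description.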

How the data were processed

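H3K27me3 Cut&Tag was profiled in 7 libraries of edited mESCs (3 Hoxa, 2 Wnt6 and 2 Hmx1 deletion); the 7 IgG libraries were not analysed here. The authors deposited raw counts per peak over 1 list of 74458 peaks shared by all libraries. The submitters' processing notes name Trimmomatic, Bowtie2, SAMtools, Picard, MACS2 and deepTools and the mm10 build, without their roles; whether reads or fragments were counted and whether peak starts count from 0 is not given in the sources used here, and coordinates are printed as deposited. A shared peak list leaves out places marked too weakly to be called.

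Groups followed the sample labels. Peaks were assigned to every RefSeq gene (GRCm38.p6) whose body lay within 5 kb, and gene values are sums over those peaks. Counts were filtered with filterByExpr (17 peaks removed), scaled by TMM and tested with the edgeR quasi-likelihood test (edgeR 4.0.16, limma 3.58.1, R 4.3.3), each deletion against the other 2 pooled and in pairs, with Benjamini-Hochberg adjustment over all peaks or all genes. Intervals are 95% and cover the spread between libraries. Peak counts at members were 37 at least, with medians of 143 to 954 per library. DESeq2 1.42.0, other scalings, filters, windows, downsampling, a replicate block and leaving out each library were tried as alternatives. The edgeR scripts were tested on simulated data.

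The members and gene lists were chosen with earlier results of these data known. Named by rule were all members, the strongest peak of each, the peak with the smallest p in each comparison, listed genes (some not reported here) and the 5 genes of most similar pattern. Mir196a-2, Mir196b and Mir10b, and the alternatives for Gm11539, Gm53 and Mir196a-1, were added after values were seen. The main fits had no replicate block: over peaks, the correlation of replicate differences between deletions was 0.053, 0.016 and −0.013. Depth did follow the replicate number. Replicate 1 totalled 8656908, 9982841 and 6016500 counts in the Hoxa, Wnt6 and Hmx1 deletions, and replicate 2 totalled 25595584, 36563541 and 25798208. Whether libraries of the same replicate number were prepared or sequenced together is not given by the labels.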

Additional observations from a re-analysis of the deposited data

How the results depend on the processing

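Counts of Hoxb peaks and genes past the test were 0 in the 3 deletions under 215 of 216 alternatives, leave-one-out fits (0 to 0) and the replicate block included. The exception was 2 peaks past the adjusted p in the Hoxa deletion when the unbroken span from Hoxb1 to Hoxb13 was taken, which adds the 13 peaks between the Hoxb13 and Hoxb9 windows. None of the 660 alternative values of single member genes passed, and they ranged from −0.17 to 0.16, with 116 changes of sign. The median of the Hoxb peaks changed sign in 8 of 72 alternatives. It ranged over leave-one-out fits from −0.0021 to 0.049 in the Hoxa deletion, from −0.066 to 0.012 in the Wnt6 deletion (0.012 without Wnt6 replicate 2) and from −0.076 to 0.083 in the Hmx1 deletion. With the replicate block it was 0.024, −0.061 and 2.692e-04, and the block changed no call.

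The summed level moved with the window, since more or fewer peaks are added up. With 0 kb, 2 kb, 10 kb and the unbroken span it was 1473, 1632, 1928 and 2022 CPM in the Hoxa deletion and 1423, 1580, 1855 and 1918 in the Wnt6 deletion. In the Hmx1 deletion it was 1456 with 0 kb, 1889 with 10 kb and 1957 with the span. Over all peaks, DESeq2 gave 237 past the adjusted p in the Hmx1 deletion against 23 in edgeR, and 50 against 21 with the fold change minimum. Over all genes it gave 40 against 15 in the Wnt6 deletion and 488 against 15 in the Hmx1 deletion, and 0 Hoxb genes in each. A deletion left with 1 library was taken to vary like the others. With 2 or 3 libraries a deletion, changes inside the intervals given for the Hoxb genes are not excluded.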
